A study of Mus musculus with 26 samples.

Results

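The Gadd45, Btg and Tob genes and Rgcc encode small proteins that restrain growth, and their labelled mRNAs were followed through a chase in mouse oligodendrocyte progenitor cells (OPCs) and in the oligodendrocytes (OLs) made from them, which form myelin. The members were Gadd45a, Gadd45b, Gadd45g, Btg1, Btg2, Btg3, Tob1, Tob2 and Rgcc, taken by gene symbol. Of these 9 genes, 8 had a transcript among the 10104 listed for either cell type, and each was represented by 1 transcript. Gadd45b, Btg1, Btg2, Tob1, Tob2 and Rgcc were listed for both cell types, Gadd45a and Gadd45g were listed for OLs alone, and Btg3 was not analysed here. The group was selected on measured values of these same data in part: the longer half-life of Gadd45b in OLs and the steep decline of Rgcc in OPCs were known when the members were chosen. Those values, and what is computed from them, are given as a description with no test.

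All cells were of the 129S/SvEv strain and were derived from epiblast stem cells. OPCs were kept in medium with the growth factors bFGF and PDGFA. OLs had been differentiated for 40 h in medium with noggin, IGF-1, cyclic AMP, NT3 and the thyroid hormone T3. Both cell types then took up 5-ethynyluridine (5-EU), a uridine analogue to which biotin can be coupled, for 24 h. Uridine then took the place of the analogue for a chase of 0, 1, 2, 4 or 6 h, and the RNA that still carried 5-EU was captured on streptavidin and sequenced. There were 15 OPC libraries from 3 replicates and 10 OL libraries from 2 replicates, and 1 OPC control without biotin was not analysed here. OLs thus differed from OPCs in medium, and in the density at which cells were seeded, as well as in cell type, and these cannot be told apart.

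The identity of the cells was checked by markers in the labelled RNA at 0 h. The summed level of 7 oligodendrocyte markers was 39.2 to 57.5 FPKM (fragments counted per kilobase of a transcript and adjusted for library size) in OPCs and 2927 to 6352 in OLs, where all 7 were listed. The sum of 6 markers taken for progenitors was 1530 to 1691 in OPCs and 986 to 1171 in OLs. Most of it was Olig1 (1009 to 1079 FPKM in OPCs, 506 and 635 in OLs) and Olig2 (316 to 332 against 190 and 218). The study counts OLIG2 as a marker of both cell types, so the sum does not measure progenitor identity alone. Cspg4 was lower in OLs (35.7 to 55.7 against 29.9 and 30.7) and Ptprz1 overlapped (97.7 to 255 against 109 and 127). Pdgfra (11.5 to 26.5 FPKM in OPCs, 43.9 and 66.9 in OLs) and Sox10 (4.06 to 25.4 against 89.0 and 111) were higher in OLs, against the order of the summed level. Of 4 astrocyte markers, 1 was listed for OPCs and 3 for OLs, and their sum was 22.9 to 37.0 FPKM in OPCs and 85.9 to 106 in OLs. Of 4 neuronal markers 1 and 2 were listed, with sums of 13.2 to 17.4 and 25.9 to 27.7 FPKM. No marker of microglia or of pluripotent cells was listed. The part of other cell types in the values below was not tested, and a larger share of cells that express a gene cannot be told apart from more RNA per cell.

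Gadd45 proteins are stress-inducible proteins that bind MAP3K4, the kinase at the top of the p38 and JNK cascades, and they also bind PCNA and the CDK1 and cyclin B1 complex. BTG and Tob proteins share a domain that contacts the CAF1 subunits (CNOT7 and CNOT8) of the CCR4-NOT deadenylase, the complex that shortens the poly(A) tails of mRNAs. Tob proteins also bind the poly(A)-binding protein. BTG2 is a target of p53 and is known from dividing neural progenitors. RGCC, regulator of cell cycle, was described as a partner of CDK1. Many mRNAs of this kind are short-lived, which ties their level to recent transcription.

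Sequence elements in the 3′ untranslated region (3′ UTR) that are known to shorten the life of an mRNA were looked for in the members. AU-rich elements contain the letters ATTTA, with TATTTAT as a longer form that contains it. Only the sense strand was searched, in the GENCODE M21 models on GRCm38. TATTTAT stood once in each of Btg2, Tob2 and Gadd45a. These sites are printed because they are the longer matches found in the members, with the motif in capitals and the DNA letters of the sense strand 5′ to 3′.
Btg2: aaatgaagagcTATTTATacatgtttttt
Tob2: tatcacctgctTATTTATgtacgaggttg
Gadd45a: atgtgaaaggtTATTTATgataaagtttt

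Each of the 3 windows lies within 1 exon, in its 3′ UTR part. The Btg2 window is at chr1:134077249-134077277 on the minus strand and its motif begins at base 103 of a 3′ UTR of 2199 bases. The Tob2 window is at chr15:81849860-81849888 (minus, base 852 of 2457) and the Gadd45a window at chr6:67035137-67035165 (minus, base 505 of 563). Btg1 had the longest 3′ UTR of the members, 4166 bases, which is longer than 93.6% of those compared, and it did not hold the longer motif. TATTTAT was present in 30.1% of the 9968 3′ UTRs of the listed transcripts. Long 3′ UTRs hold more of such letters: among 3′ UTRs within 20% of the length of each of these members, TATTTAT was present in 41.5% for Btg2, 44.4% for Tob2, 18.3% for Gadd45a and 60.0% for Btg1.

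The shorter ATTTA was found in 6 of the 8 members, against 69.9% of all 3′ UTRs. It stood 11 times in Btg1, 5 times in Btg2, 4 times in Tob2, 3 times in Tob1, 2 times in Gadd45a and once in Rgcc, and in neither Gadd45b nor Gadd45g. The longer nonamer TTATTTATT was in none of the 8, against 7.87% of all 3′ UTRs. The coding sequences of the members were shorter than the median. Btg1, Btg2, the 3 Gadd45 transcripts and Rgcc had 137 to 171 codons, and Tob1 and Tob2 had 362 and 345, against a median of 467. The share of codons that end in G or C was 61.6% in Tob1, 65.5% in Btg1 and between 72.1% and 77.2% in the other 6, against a median of 60.6%.

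At 0 h, after 24 h of labelling, Gadd45b was the member whose labelled RNA differed between the cell types, and none of the others passed the test. Gadd45b stood at 5.57, 4.50 and 11.0 FPKM in OPC replicates 1, 2 and 3, while the 2 OL replicates were at 29.9 and 26.6. Both OL values lay above all OPC values, and the transcript moved from percentiles 8.51 to 32.0 of the OPC table to percentiles 66.5 and 71.5 of the OL table. Its log2 change from OPCs to OLs was 1.95 ± 0.337 (SE), or 3.86-fold higher, on the log2(FPKM + 1) scale (limma, n = 3 and 2, adjusted p = 0.00475 over 8177 transcripts). The 0 h level also enters the half-life of Gadd45b, which was known when the members were chosen, so this test is not independent of that choice. The call was lost without OL replicate 1, with a log2 change of 1.86 and an adjusted p of 0.0566, and it was kept in the other 8 alternative settings, with adjusted p of at most 0.0395.

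Btg2 was the member with lower values in OLs. Its labelled RNA was 46.4, 39.7 and 48.5 FPKM in OPCs and 27.0 and 35.3 in OLs. The groups did not overlap, but the log2 change of -0.52 ± 0.23 (SE) did not pass the test (limma adjusted p = 0.12).

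The Tob genes and Rgcc, by contrast, had log2 changes above 0 that did not pass. Tob1 was at 46.6, 47.3 and 46.3 FPKM in OPCs and at 48.6 and 63.8 in OLs, with both OL values above the OPC values (log2 change 0.25 ± 0.22, limma adjusted p = 0.414). Tob2 was at 15.9, 16.3 and 11.3 against 12.6 and 22.2, and Rgcc, the member with the highest mean level in both cell types, was at 82.9, 62.8 and 46.2 against 77.3 and 111. Both overlapped, with limma adjusted p of 0.599 and 0.186. Btg1 also overlapped, at 14.9, 23.8 and 22.0 against 20.9 and 24.6 FPKM (adjusted p = 0.625).

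The pair listed for OLs alone was of similar abundance to the other members. Gadd45a was at 27.8 and 17.8 FPKM and Gadd45g at 22.2 and 38.3 FPKM. The OPC table leaves out transcripts under 1 FPKM at 0 h and also those at 0 at 1 and 2 h, and which of these applied to them was not tested, so no OPC level and no fold is given. Over the 6 members in both tables, 1 was called higher in OLs, where 13.8% of all transcripts were, and 0 were called lower, where 15.8% were. By the raw order of the replicates, both OL values lay above all OPC values for 2 of 6 members, against 28.0% of all transcripts, and below them for 1 of 6, against 31.4%. The median log2 change was 0.23 over the members and -0.01 over all transcripts. Of the 4 members other than Gadd45b and Rgcc, 0 were called in either direction. By raw order 1 of these 4 lay above and 1 below, and their median was 0.20.

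**Figure D1:**
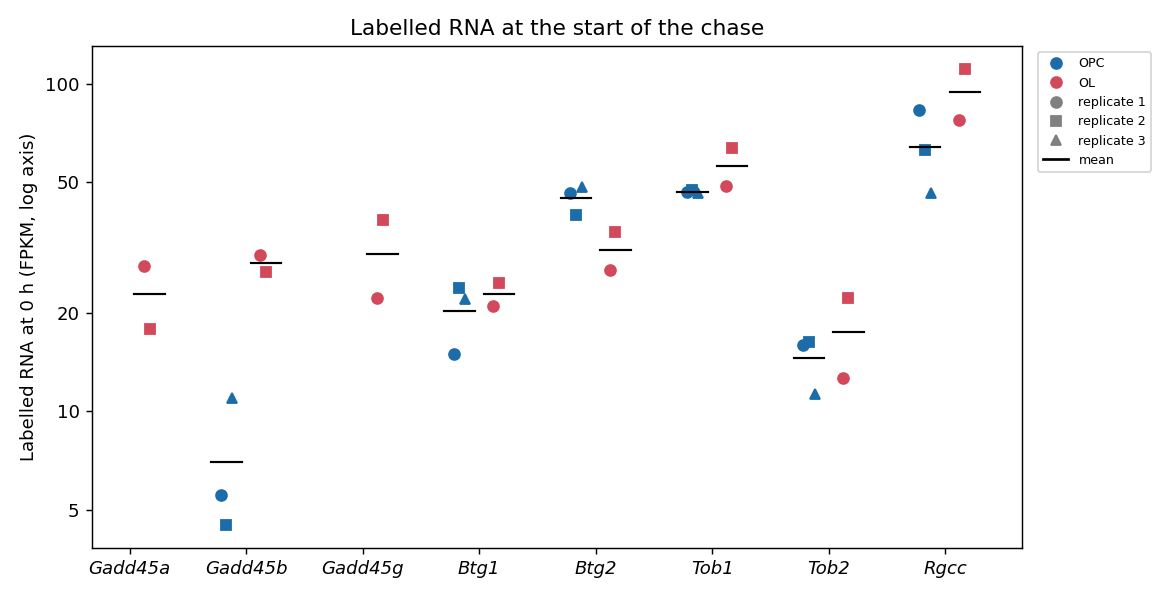
Labelled RNA at 0 h of chase in FPKM (log axis) for each member in OPCs (blue) and OLs (red), with 1 point per replicate and a bar at the mean. Gadd45b lies between 4.50 and 11.0 in OPCs and at 26.6 and 29.9 in OLs, whereas the ranges of Btg1, Tob2 and Rgcc overlap.

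The chase curves of the members differed in shape. In OPCs all members but Btg1 had lost most of their label by 2 h in every replicate. From 4 h on Gadd45b and Rgcc were listed at 0 in several replicates and Tob2 in 1, and Btg2 and Tob1 stayed at a low level. Each value below is the share of the replicate's own 0 h level on the authors' spike-in scale, to be set beside the median share over all transcripts of the same library: at 2 h, 54.7%, 83.3% and 72.0% for OPCs (replicates in the order 1 to 3, as throughout) and 72.8% and 62.8% for OLs.

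Btg2 fell to 5.13%, 8.77% and 8.14% of 0 h at 2 h in OPCs, which placed it among the lowest 1% of transcripts in each (percentiles 0.598 to 0.95). It was at 4.66%, 1.60% and 6.84% at 4 h and at 10.8%, 7.95% and 5.65% at 6 h, so that nearly all of its decline lay in the 0 to 2 h interval. In OLs 23.3% and 25.6% were left at 2 h, 38.7% and 30% at 4 h, and 33.7% and 12% at 6 h. The OL shares were above all OPC shares at 2, 4 and 6 h. At 1 h they were 33.9% and 126% in OLs and 21%, 59.5% and 35.2% in OPCs, and they overlapped.

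The Tob transcripts also fell early in OPCs, to shares at 2 h that for Tob1 were all above those of Btg2. Tob1 was at 10.9%, 11.7% and 13.6% at 2 h in OPCs and at 25.1% and 36.6% in OLs, with no overlap. At 6 h it was at 7.67%, 13% and 10.9% in OPCs and at 23.9% and 9.76% in OLs, where the groups overlapped. Tob2 was at 12.6%, 8.02% and 21.4% at 2 h in OPCs and at 26.9% and 19.2% in OLs, so that OL replicate 2 lay below OPC replicate 3. At 4 h it was at 6.69% and 9.27% in OPC replicates 1 and 3 and listed at 0 in replicate 2, against 36.4% and 19% in OLs, and at 6 h it was at 5.46%, 16.5% and 12.8% against 27.7% and 9.32%.

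Btg1 differed from its paralogue Btg2. Its share at 2 h was 33.9%, 49.4% and 61.9% in OPCs and 38.1% and 41.1% in OLs, and the OL values lay inside the OPC range. By 4 h it had fallen to 9.63%, 8.44% and 8.90% in OPCs and to 30.5% and 22.0% in OLs, which did not overlap. At 6 h the shares overlapped again, at 10.1% to 15.4% in OPCs and 9.30% and 32.1% in OLs.

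Gadd45b showed the widest gap. In OPCs it was at 114%, 49.9% and 69.8% of 0 h at 1 h and at 18.4%, 31.7% and 17% at 2 h, was listed at 0 in all 3 replicates at 4 h, and at 6 h was at 22.6% in replicate 1 and listed at 0 in replicates 2 and 3. In OLs it stayed at 68.6% and 68.1% at 1 h, 70.5% and 68.9% at 2 h, 61.9% and 89.3% at 4 h and 83.4% and 43.5% at 6 h. The OPC values start from few FPKM: its 2 h levels there were 1.03, 1.43 and 1.86 FPKM, and 2.23%, 14.8% and 5.65% of all transcripts were listed at 0 at 4 h in the same libraries. Whether the zeros are low sampling or complete loss was not tested.

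Rgcc was abundant at the start and was still listed at 0 late in the chase. In OPCs it went from 82.9, 62.8 and 46.2 FPKM at 0 h to 19.7, 14.6 and 9.04 at 2 h, which is 23.7%, 23.3% and 19.6% of 0 h. It was listed at 0 at 4 h in OPC replicates 1 and 2, was at 10.2 FPKM in replicate 3, and was listed at 0 at 6 h in all 3. In OLs 30.2% and 48.1% of 0 h were left at 2 h, 39.7% and 26.3% at 4 h and 25.8% and 15.9% at 6 h, and no OL value was at 0.

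Gadd45a and Gadd45g, seen in OLs alone, had replicates that did not follow each other. Gadd45a was at 59.3% and 166% of 0 h at 1 h, at 37.3% and 46.9% at 2 h and at 21.6% and 54.2% at 6 h. Gadd45g was at 25.4% and 77.1% at 1 h, at 40.6% and 13.3% at 2 h and at 67.0% and 25.1% at 6 h.

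**Figure D2:**
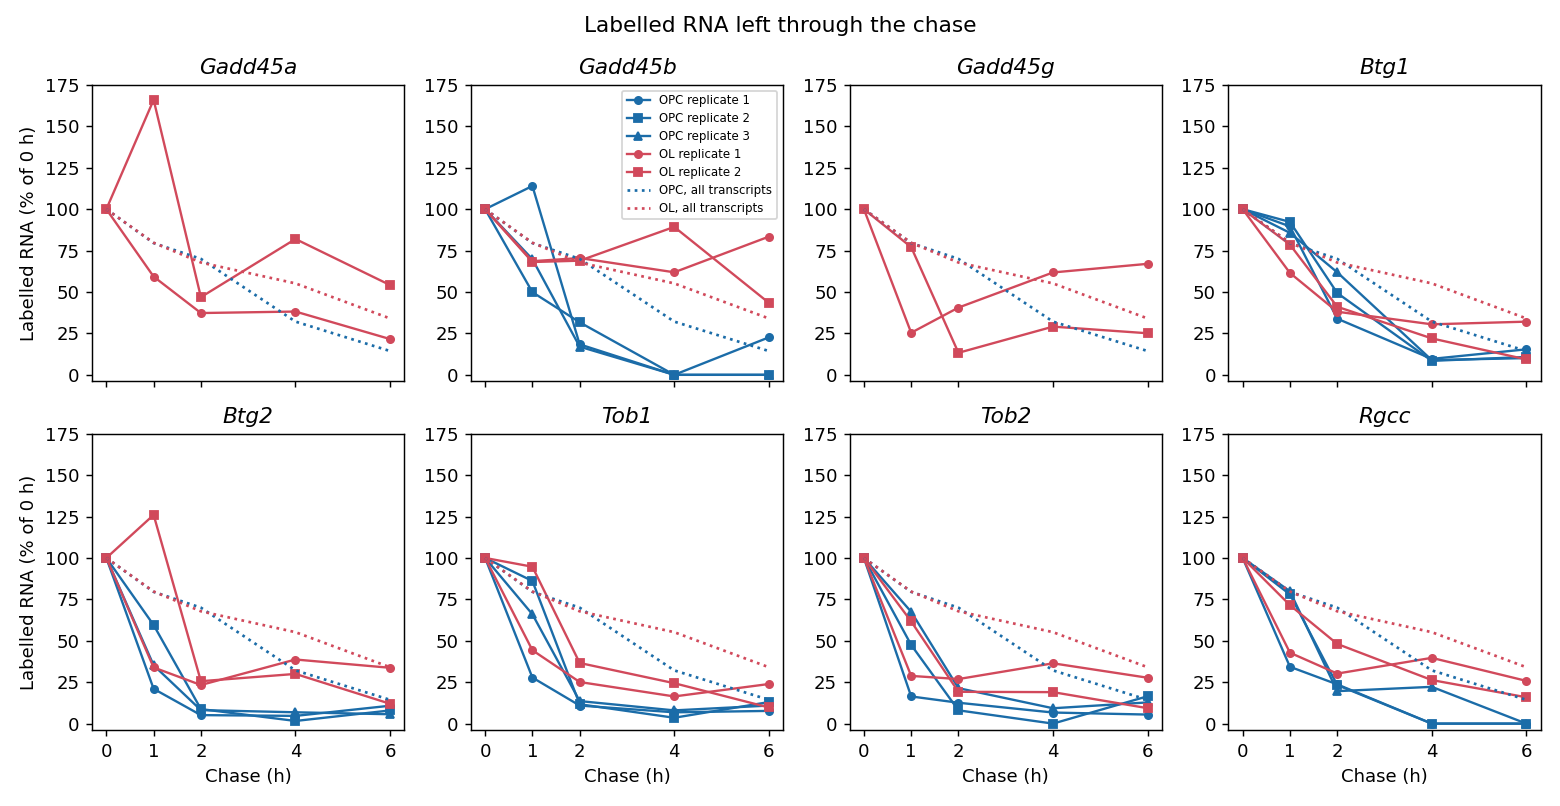
Labelled RNA as a percent of the replicate's own 0 h level (y axis) against hours of chase (x axis) for each member, with 1 line per replicate in OPCs (blue) and OLs (red). Dotted lines are the median over all transcripts, averaged over the replicates of the cell type. Btg2 is at 5.13% to 8.77% in OPCs at 2 h and at 23.3% and 25.6% in OLs.

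A gap between the cell types was seen for 4 of 6 members at 2 h, before the library medians part. Both OL shares lay above all OPC shares for 0 of 6 members at 1 h (2.71% of all transcripts), for 4 of 6 at 2 h (13.6%), for 6 of 6 at 4 h (48.7%) and for 3 of 6 at 6 h (48.9%). The 4 at 2 h were Gadd45b, Btg2, Tob1 and Rgcc. Without Gadd45b and Rgcc, whose decay was known beforehand, the counts were 0 of 4 at 1 h, 2 of 4 at 2 h, 4 of 4 at 4 h and 1 of 4 at 6 h. The 2 h time point was chosen after the values were seen, and the counts are a description with no test.

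Dividing each share by the median share of its library removes what all transcripts of a library have in common. On this ratio 18 of 18 OPC values at 2 h and 15 of 16 OL values were below 1, the exception being Gadd45b in OL replicate 2 (1.10). Btg2 was at 0.0939, 0.105 and 0.113 of the median in OPCs and at 0.320 and 0.407 in OLs. Tob1 was at 0.199, 0.140 and 0.189 against 0.344 and 0.583, Tob2 at 0.231, 0.0962 and 0.297 against 0.369 and 0.305, and Gadd45b at 0.337, 0.381 and 0.236 against 0.968 and 1.10. In these 4 both OL values lay above all OPC values, which was so for 19.6% of all transcripts. Btg1 (0.593 to 0.860 against 0.523 and 0.654) and Rgcc (0.272 to 0.434 against 0.414 and 0.765) overlapped. Without Gadd45b and Rgcc the count was 3 of 4.

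**Figure D3:**
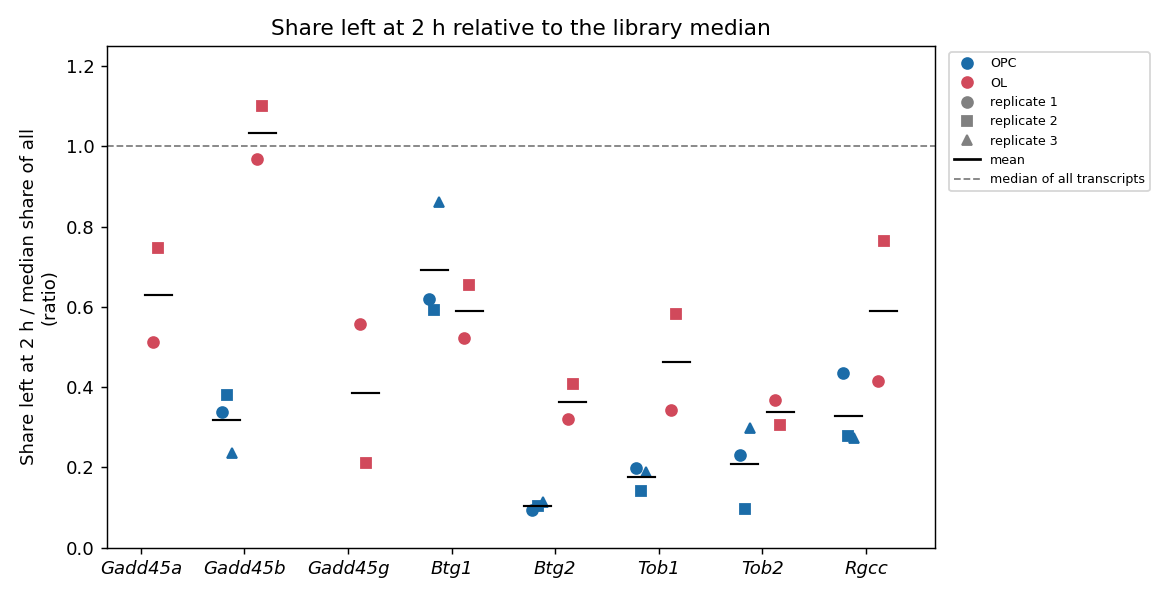
Share of labelled RNA left at 2 h of chase, divided by the median share over all transcripts of the same library (ratio, y axis), for each member in OPCs (blue) and OLs (red), with 1 point per replicate and a bar at the mean. The dashed line at 1 is the library median, and Gadd45b in OL replicate 2, at 1.10, is the value above it.

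Half-lives in hours, fitted by the authors to the whole curve with a ceiling of 6 h, gave 1 value per replicate. The median over all transcripts was 2.33, 2.05 and 2.79 h in OPCs and 4.15 and 4.05 h in OLs. In every OPC replicate all 6 members were below it. Gadd45b had half-lives of 0.819, 0.996 and 0.781 h in OPCs (0.865 ± 0.115 h, SD, n = 3) and 5.78 and 5.00 h in OLs (5.39 ± 0.552 h, SD, n = 2). It moved from percentiles 2.50 to 6.51 to percentiles 58.0 and 59.5, so that among OL transcripts it was of ordinary stability. The log2 change of 2.64 ± 0.148 (SE), or 6.23-fold, was the 7th highest of 8112, and it is given with no test.

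Btg2 had the lowest mean half-life of the members in OPCs, although Tob2 was lower in replicate 1 and level with it in replicate 2. The half-life of Btg2 was 0.444, 0.760 and 0.663 h there (percentiles 0.848 to 1.37) and 2.92 and 1.96 h in OLs (percentiles 36.8 and 15), without overlap. The log2 change of 1.98 ± 0.343 (SE), or 3.94-fold, did not pass the test (limma adjusted p = 0.0851), and over 11 alternatives it ranged from 0.98 to 2.26 with adjusted p of 0.0619 to 0.524.

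Tob2 and Rgcc had longer values in OLs with wide spread. Tob2 was at 0.384, 0.760 and 1.17 h against 2.74 and 1.44 h (log2 change 1.51 ± 0.647, limma adjusted p = 0.302). Rgcc was at 0.648, 0.951 and 1.84 h against 3.00 and 2.08 h, a log2 change of 1.26 ± 0.56 that is given with no test. Tob1 overlapped, at 0.541, 0.829 and 1.10 h against 1.00 and 1.86 h (0.79 ± 0.471, adjusted p = 0.463), and its change turned to -0.11 when half-lives were centred on the replicate medians. Btg1 was at 1.28, 1.96 and 1.96 h against 1.44 and 1.83 h, with a log2 change of -0.07 ± 0.274 (adjusted p = 1.0) where the median over all transcripts was 0.38.

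Among all transcripts of OPCs, Btg1 was at percentiles 19.7, 44.3 and 29.4 and Rgcc at 3.56, 5.01 and 24.5, whereas the other 4 members were between 0.412 and 9.43. In OLs Btg1 and Tob1 were among the less stable transcripts, at percentiles 10.5 and 14.2 and at 5.85 and 11.1. Gadd45a was at 2.71 h and at the ceiling of 6 h (percentiles 33.3 and 82.0), and Gadd45g at 5.76 and 2.24 h (percentiles 59.4 and 20.7). The order of the mean half-lives in OLs was Gadd45b, Gadd45a, Gadd45g, Rgcc, Btg2, Tob2, Btg1 and Tob1. Gadd45b, the highest, lay within the spread of Gadd45a, and its lower value (5.00 h) lay within that of Gadd45g. In OPCs the order was Btg1, Rgcc, Gadd45b, Tob1, Tob2 and Btg2, and neighbours in this order overlapped.

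The half-lives of OL replicate 1 depended on the fit for several members. A least absolute deviations fit over all values up to the ceiling gave the deposited half-life within 0.02 h for 30 of 34 values, and the other 4 were all of OL replicate 1. For Btg2 it gave 0.951 h in place of 2.92 h, with absolute residuals summing to 80.0% of the 0 h level in place of 93.5%. For Tob2 it gave 1.06 h in place of 2.74 h (77.9% against 88.0%), for Rgcc 1.16 h in place of 3.00 h (65.8% against 70.2%) and for Gadd45a 1.41 h in place of 2.71 h (42.5% against 43.1%). With the refitted values the order of the mean half-lives in OLs became Gadd45b, Gadd45g, Gadd45a, Btg1, Rgcc, Btg2, Tob1 and Tob2. The log2 changes were then 1.17 for Btg2, 0.82 for Tob2 and 0.57 for Rgcc, and stayed at 2.64 for Gadd45b.

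The count of members with both OL half-lives above all OPC half-lives was 4 of 6 with the deposited values (Gadd45b, Btg2, Tob2 and Rgcc), against 35.9% of all transcripts, and 2 of 6 with the refitted values (Gadd45b and Btg2), against 35.8%. Without Gadd45b and Rgcc the count with the deposited values was 2 of 4. Of these 4, 0 were called longer (limma adjusted p under 0.05), where 3.39% of all transcripts were, and 1, Btg2, was longer at an unadjusted p under 0.05, where 22.2% of all transcripts were. The median log2 change was 1.38 over the 6 members with the deposited values, 0.805 with the refitted values and 0.38 over all transcripts. Centring each replicate on its median moved all changes by -0.90, after which the median over the members was 0.48 and over all transcripts -0.53. For the 4 members other than Gadd45b and Rgcc the median was 1.15 with the deposited values and 0.25 after centring.

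**Figure D4:**
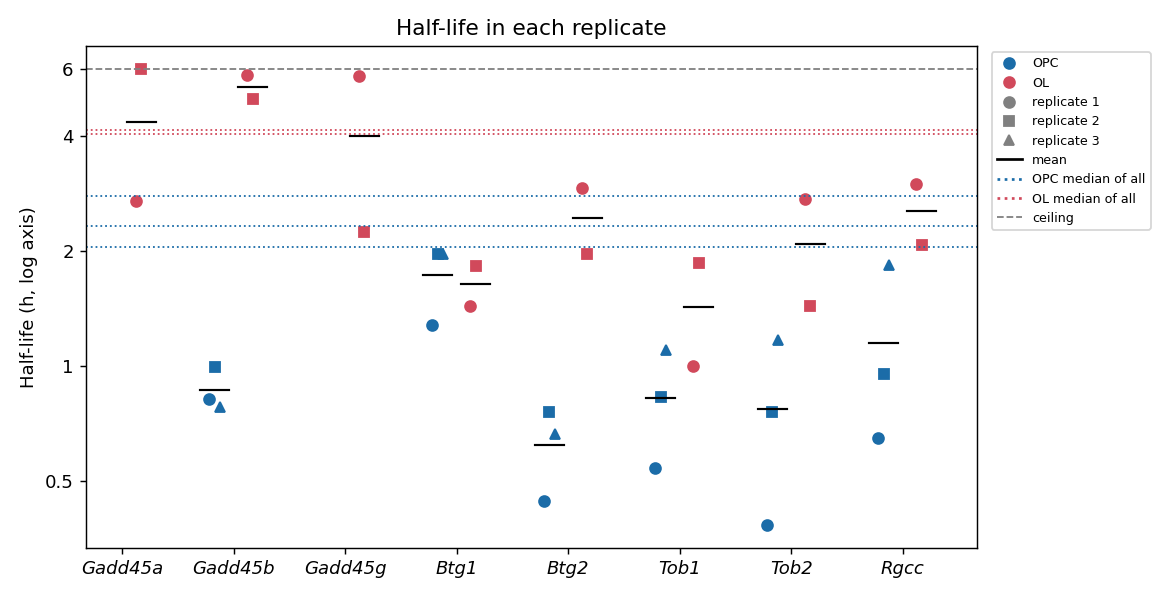
Half-life in hours (log axis) of each member in each replicate of OPCs (blue) and OLs (red), with a bar at the mean. Dotted lines are the medians over all transcripts in each replicate and the dashed line is the ceiling of 6 h. Gadd45b lies between 0.781 and 0.996 h in OPCs and at 5.00 and 5.78 h in OLs, and Btg1 overlaps.

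A slope of log2(FPKM + 1) on hours of chase has no ceiling. Within a cell type it was fitted over all libraries with replicate as a block. Its SE and p thus take the library as the unit and not the replicate, and differences in slope between replicates are not modelled. Rgcc had the steepest slope of all 8530 transcripts in OPCs, -1.06 ± 0.10 log2 units per h (SE), and Gadd45b had a slope of -0.48 ± 0.08, and both are given as a description. These values rest on levels of 0 and on the pseudocount, and with a pseudocount of 0.1 they were -1.68 and -0.98. The 4 other members fell (limma adjusted p under 0.05), as did 81.7% of all transcripts. Btg2, Tob1 and Btg1 fell by 0.54, 0.53 and 0.53 log2 units per h (adjusted p of at most 0.000398) and Tob2 by 0.43 (0.000507), where the median over all transcripts was -0.38. When each time point was set to the 0 h median, which moved the median slope by 0.36, none of these 4 passed, with slopes of -0.07 to -0.10.

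In OLs 5 of the 6 members other than Gadd45b and Rgcc fell, against 68.4% of all transcripts. Tob1 had the steepest slope (-0.43 ± 0.07, limma adjusted p = 7.75e-05), followed by Btg1 (-0.37 ± 0.06), Btg2 (-0.31 ± 0.09), Tob2 (-0.31 ± 0.08) and Gadd45a (-0.23 ± 0.06), and Gadd45g at -0.12 ± 0.10 (adjusted p = 0.279) did not pass. Rgcc at -0.33 ± 0.06 and Gadd45b at -0.08 ± 0.05 are given with no test. Fitted apart, OL replicates 1 and 2 had slopes of -0.31 and -0.54 for Tob1 and -0.24 and -0.5 for Btg1. They were -0.14 and -0.48 for Btg2, -0.16 and -0.46 for Tob2, -0.29 and -0.16 for Gadd45a and 0.04 and -0.28 for Gadd45g. As libraries were the unit, the p above may overstate the evidence. Without OL replicate 2 the calls of Btg2 (-0.14, limma adjusted p = 0.157) and Tob2 (-0.16, 0.1) were lost, and that of Gadd45a was lost without OL replicate 1 (-0.16, 0.187) and without 6 h (-0.24, 0.0716). With each time point set to the 0 h median none of the 6 passed.

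The slopes of the replicates were then compared between OLs and OPCs, where a difference above 0 is a less steep fall in OLs. The difference was above 0 for all 6 members, as it was for 83.1% of all transcripts, and ranged from 0.11 for Tob1 to 0.73 for Rgcc, the third highest of 8177. Without OL replicate 1 it was -0.01 for Tob1 and -0.03 for Tob2. Rgcc (0.73 ± 0.105) and Gadd45b (0.40 ± 0.095) are given with no test, and with a pseudocount of 0.1 they were 1.34 and 0.90. Btg2 (0.23 ± 0.104, limma adjusted p = 0.123), Btg1 (0.16 ± 0.092, 0.227), Tob2 (0.12 ± 0.092, 0.375) and Tob1 (0.11 ± 0.086, 0.378) did not pass, and 23.7% of all transcripts were called less steep. Without the 6 h libraries the difference passed for Btg2 (0.63, adjusted p = 0.0115) and Tob1 (0.39, 0.0459), where 15.1% of all transcripts were called less steep in OLs at that setting. With the 0 h median scaling it was 0.02 for Btg2, -0.12 for Tob1, -0.03 for Tob2 and -0.06 for Btg1, and the last 3 are in the other direction.

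How alike the members were in level was described over the 25 libraries by Pearson's r of log2(FPKM + 1) less the library median. These libraries share cell type and chase time, so r is a description. Btg2, Tob1 and Tob2 were alike, with r of 0.898 for Btg2 and Tob1, 0.877 for Btg2 and Tob2 and 0.871 for Tob1 and Tob2. Among all transcripts the 3 most like Btg2 were Zxdc (0.907), Tob1 and Tob2. Other transcripts were closer to Tob1 (r of up to 0.937) and to Tob2 (up to 0.882) than any member was. Gadd45b had an r of 0.356 to Btg2 and was most like Rubcn (0.927), Map7d1 (0.925) and Katnal1 (0.920). Rgcc was most like Tab1 (0.876), Clk1 (0.873) and Rnf167 (0.863). Btg1 was most like Sox4 (0.899), Zfp462 and Sowahc (both 0.855), and its r to Btg2 was 0.548.

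The genes that work with the Gadd45 proteins, 13 in number and including the p38 and JNK cascades, PCNA and the CDK1 complex, were taken as a list. Of the 11 tested at 0 h, 0 were called higher and 4 lower in OLs (limma), where 13.8% and 15.8% of all transcripts were. The 4 were Ccnb1, which encodes cyclin B1, with a log2 change of -3.47 (adjusted p = 0.00133), the replication clamp gene Pcna with -1.61 (0.00806), the p38 activator Map2k6 with -1.17 (0.0221) and Mapk14, which encodes the alpha form of p38, with -0.81 (0.0227). The median log2 change of the 11 was -0.33, against -0.01 over all transcripts. No half-life of the 11 was called longer in OLs (limma), where 3.39% of all transcripts were. At an unadjusted p under 0.05, 3 of 11 were longer, where 22.2% of all transcripts were. The median log2 half-life change of the 11 was 0.14, against 0.38 over all transcripts. The slope was less steep in OLs for 5 of 11, where it was for 23.7% of all transcripts, led by the CDK inhibitor gene Cdkn1a (0.61, limma adjusted p = 0.00284) and Map3k4 (0.43, 0.0097), the kinase that Gadd45 proteins bind.

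The CCR4-NOT and PAN2-PAN3 deadenylase genes were taken with the poly(A)-binding protein genes Pabpc1 and Pabpc4 and with Prmt1, an arginine methyltransferase gene, as partners of the BTG and Tob proteins. The list held 17 symbols, with Cnot9 under an older symbol as well, and 12 were tested. At 0 h Cnot9, a subunit of CCR4-NOT, and Pan2, the catalytic subunit of the PAN2-PAN3 deadenylase, were lower in OLs, with log2 changes of -1.35 and -1.33 (limma adjusted p = 0.00265 and 0.00386). None of the 12 was called higher (limma), where 15.8% of all transcripts were called lower and 13.8% higher. No half-life of the 12 was called longer (limma), where 3.39% of all transcripts were. At an unadjusted p under 0.05, 1 of 12 was longer, where 22.2% of all transcripts were. The median log2 half-life change of the 12 was 0.45, against 0.38 over all transcripts. The slope was less steep in OLs for 4 of 12 (23.7% of all transcripts), namely Cnot10, Cnot3, Cnot11 and Pan3.

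Of 15 other growth arrest genes under p53 or FoxO control, Cdkn1a again among them, 14 were tested. At 0 h 3 were higher and 2 lower in OLs, where 13.8% and 15.8% of all transcripts were. The higher ones were Mdm2, the ubiquitin ligase gene for p53 (log2 change 1.09, limma adjusted p = 0.019), Sesn3 (0.74, 0.03) and Ddit4 (0.88, 0.0397), the sestrin and REDD1 genes that restrain mTORC1. Plk2 (-1.62, 0.00465) and Trp53, the p53 gene (-0.84, 0.0182), were lower. Phlda3, which encodes an inhibitor of AKT, was called longer-lived in OLs (log2 change 1.58, limma adjusted p = 0.0478). The call was lost with the replicate block, where 0 half-lives of all transcripts passed. It was also lost after centring on the replicate medians, where 0 were called longer. No other half-life of the 14 passed, where 3.39% of all transcripts were longer. At an unadjusted p under 0.05, 6 of 14 were longer, where 22.2% of all transcripts were. The slope was less steep in OLs for 4 of 14, against 23.7%. Their median log2 half-life change was 0.67, against 0.38 over all transcripts.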

How the data were processed

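The members and the gene lists were chosen with earlier results of these data known. Per the labels and the study's methods, the authors aligned single-end reads to GRCm38 (mm10) with HISAT2 2.1.0, tabulated FPKM of canonical coding transcripts with StringTie 1.3.5, left out transcripts under 1 FPKM at 0 h and those at 0 FPKM at 1 and 2 h, and scaled FPKM to the reads of 5-EU-labelled spike-ins, so an error in 1 scale factor moves a whole library. The deposited half-lives, in h, were fitted by the authors per replicate by least absolute deviations. FPKM covered 8530 transcripts in OPCs, 9751 in OLs and 8177 in both, and 8112 had a half-life in all 5 replicates. Read counts could not be recovered from the FPKM values and raw reads were not used here, so depth is unknown. Here, log2 half-life, log2(FPKM + 1) at 0 h (pseudocount 1) and slopes on hours of chase (replicate as a block within a cell type; 1 slope per replicate between cell types) were tested with limma 3.58.1 in R 4.3.3 with Benjamini-Hochberg adjustment over all transcripts and a threshold of 0.05. The scripts were tested on simulated data. A refit gave the deposited half-life within 0.01 h for 98.5% to 99.9% of transcripts per replicate. Replicates shared no more than 0.00242% of identical values. Positions, 3′ UTRs and coding lengths came from GENCODE M21 by transcript identifier (10090 of 10104 usable). Every listed member was named. Of each list of other genes, at most 4 of those called in a comparison were named, by lowest adjusted p. For likeness, the 3 transcripts with the highest r were named for 4 members. Alternatives were another pseudocount, a 5 FPKM filter, other scalings, refits of the half-life, a ceiling of 24 h, no 6 h libraries, the replicate block and leaving out each replicate. The study describes replicates as independent experiments, but it also states that the 2 OL replicates match 2 of the OPC replicates. The main comparisons of the cell types here are unpaired.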

Additional observations from a re-analysis of the deposited data

How the results depend on the processing

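Of 284 values of members under an alternative, 16 changed sign. Most of the changes of sign were in values that passed no test, such as the half-life of Btg1 and the slope differences of Tob1 and Tob2. With each time point set to the 0 h median the OL slope of Gadd45a turned to 0.0171 and that of Gadd45b to 0.18 and that of Gadd45g to 0.13 (from below 0). Over all transcripts the same setting gave 2904 rising and 2166 falling in OPCs (368 and 6966 before) and 2963 and 1962 in OLs (146 and 6668 before). The half-life count of 287 became 1 when centred on the replicate median, 21 without 6 h, 158 with a ceiling of 24 h and 167 to 236 with a replicate left out. Rescaling to the mean decay curve gave 282 calls, with 88 longer and 194 shorter half-lives in OLs in place of 275 and 12. The count of 2421 at 0 h ranged from 896 to 2605 with a replicate left out. The slope difference count of 1944 became 569 with a pseudocount of 0.1, 131 when set to the 0 h median, 1240 without 6 h, and 0 to 2209 with a replicate left out, where the lowest was without OL replicate 2. Replicate numbers 1 and 2 are shared by the cell types, but the sources used here do not say which OPC replicates the OLs match, so a replicate block rests on a number alone. With the replicate block the half-life count was 0, the 0 h count 1932 and the slope difference count 2286, and without the block the slope counts within OPCs and OLs were 7312 and 6389. Depth is unknown, so values of a few FPKM, such as those of Gadd45b in OPCs after 1 h, carry an error that cannot be given.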
